A study of Homo sapiens with 4 samples.

Results

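The 10 genes of blood coagulation were followed through the TXNDC9 knockout: the fibrinogen chains FGA, FGB and FGG, the clotting factors F2, F5, F7, F10 and F12, the thrombin inhibitor SERPINC1, and PLG, the precursor of plasmin. They were chosen by name, and each symbol was found once among the 57979 genes with values. Polyadenylated RNA was sequenced from 2 wild-type (WT) libraries and 2 TXNDC9 knockout (TXNDC9-KO) libraries, all labelled HepG2, a liver cancer line, and grown in DMEM with fetal bovine serum. TXNDC9, a thioredoxin-domain protein, was targeted with CRISPR-Cas9 guides carried by lentiCRISPRv2. For its protein blot the study sorted cells infected with Cas9 and a guide, or with the vector alone. The labels and methods do not say whether the sequenced cells were prepared that way, which guide each library carried, whether the knockout cells were a clone or a pool, or whether replicates came from separate cultures, so p-values measure only the spread between these libraries.

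Coagulation ends when thrombin, the active form of F2, cuts fibrinogen into fibrin. F12 and its partners start the contact pathway, tissue factor with F7 starts the other, and both meet at F10, which with F5 activates F2. Hepatocytes make most of these proteins for the plasma, and antithrombin (SERPINC1) and plasmin restrain the clot and dissolve it. The comparison asked whether the mRNA of these liver products differed between the WT and TXNDC9-KO libraries.

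The hepatocyte identity of the libraries was checked first, and the values went against the label. Levels are given in FPKM, a measure of sequenced fragments that allows for how long the transcript is and how many fragments a library holds. All 7 hepatocyte markers (ALB, AFP, APOA1, APOB, TF, SERPINA1 and AHSG) lay below 1 FPKM in every library. The highest value among them was 0.449 FPKM, for AFP (alpha-fetoprotein) in WT replicate 2. Albumin (ALB) was listed at 0.0260 FPKM in WT replicate 1 and at 0 in the other libraries. APOA1 and AHSG were listed at 0 throughout. The summed level of the 7 markers was 0.383 and 0.495 FPKM in WT and 0.0236 and 0.153 FPKM in TXNDC9-KO. The libraries are therefore called by their labels only, and which cells gave the RNA was not tested. Because identifiers and symbols were out of register in the table, the symbols were also read against their values with ribosomal protein genes, chosen after values had been seen. Of 73 such symbols, 73 averaged above 100 FPKM, against 6.07% of protein-coding genes. The register of each single gene was not tested.

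Markers of other cells were read in the same way. All 4 fibroblast and stellate cell markers passed the filter of an average above 1 FPKM, and their summed level was 53.3 and 48.7 FPKM in WT and 38.02 and 34.2 FPKM in TXNDC9-KO. COL1A1, a collagen chain, was measured at 31.5 and 22.8 FPKM in WT and at 20.7 and 17.5 FPKM in TXNDC9-KO. Its log2 difference of −0.49 was not called (limma, adjusted p = 0.0536), and was 0.19 when each library was rescaled to a common total. PDGFRB, a growth factor receptor on the same list, went the other way, at 1.08 and 0.735 FPKM in WT and at 3.004 and 2.62 FPKM in TXNDC9-KO. PDGFRB averaged 0.905 FPKM in WT and 2.81 FPKM in TXNDC9-KO, so it passed the filter only through the knockout libraries. Its log2 difference was 1.55 (limma, adjusted p = 0.00392). It was called higher once FPKM had been corrected for length and GC content too (1.51). Of 4 endothelial markers 1 passed, with sums of 0.810 and 1.22 FPKM in WT and 4.41 and 3.44 FPKM in TXNDC9-KO, and KDR was listed at 0. The marker that passed, the cadherin gene CDH5, averaged 0.909 FPKM in WT and 3.70 FPKM in TXNDC9-KO. It thus passed the filter only through the knockout libraries. CDH5 was called higher, with a log2 difference of 1.92 (limma, adjusted p = 0.00195). It was called again after that correction (1.93) and when rescaled to a common total, TPM (2.60). Of 4 leukocyte markers 1 passed, with sums of 3.90 and 5.98 FPKM in WT and 6.18 and 7.40 FPKM in TXNDC9-KO, and CD3E was listed at 0. No platelet marker of 4 passed, with sums from 0.158 to 0.701 FPKM, and PF4, PPBP and GP9 were listed at 0. The part of these levels in the results was not tested, and in bulk RNA fewer cells of a type and less RNA per cell cannot be told apart.

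The targeted gene was then read. TXNDC9 was measured at 35.1 and 37.3 FPKM in WT and at 21.9 and 27.6 FPKM in TXNDC9-KO. The knockout libraries lay below both WT libraries but kept most of the mRNA. An edited gene can keep its mRNA, so this level is a weak check of the labels. The log2 difference was −0.55 (SE 0.14, n = 2 and 2, limma, adjusted p = 0.0145), which was not called. By TPM the difference was 0.12. Calls needed a change of at least 2-fold with an adjusted p under 0.01. By that rule 15.3% of the 13246 genes tested were lower and 14.2% were higher in TXNDC9-KO. The depth of each library is unknown, because the values are FPKM. The sum of FPKM was 805816 and 971102 in WT and 535973 and 568279.5 in TXNDC9-KO, and TPM moved the median log2 difference of all tested genes from −0.09 to 0.59.

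Promoter sequence was read next. The 250 bases before the RefSeq start (GRCh38.p14) were searched on both strands for CTGGGAA, the element through which STAT3 answers interleukin-6, and for CAAAGTCCA, an HNF4 site. The table held 9 of the 10 genes, SERPINC1 being the gene not in it. Those of the fibrinogen chains, F2 and F12 are printed 5′ to 3′ on the gene's strand, with the matches in capitals, because they set the genes listed near 0 beside the only one measured well above it.
FGA, chr4:154590743-154590992, minus strand: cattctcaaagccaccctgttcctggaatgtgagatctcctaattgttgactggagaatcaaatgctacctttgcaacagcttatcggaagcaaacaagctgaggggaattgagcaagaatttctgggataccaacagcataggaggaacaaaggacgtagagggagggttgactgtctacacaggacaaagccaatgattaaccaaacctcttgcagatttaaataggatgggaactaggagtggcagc
FGB, chr4:154562730-154562979, plus strand: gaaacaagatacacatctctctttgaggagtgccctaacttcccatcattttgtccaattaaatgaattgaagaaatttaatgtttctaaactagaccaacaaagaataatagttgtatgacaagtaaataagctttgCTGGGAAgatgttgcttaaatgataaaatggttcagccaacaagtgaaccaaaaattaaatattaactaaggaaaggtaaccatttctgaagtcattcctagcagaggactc
FGG, chr4:154612657-154612906, minus strand: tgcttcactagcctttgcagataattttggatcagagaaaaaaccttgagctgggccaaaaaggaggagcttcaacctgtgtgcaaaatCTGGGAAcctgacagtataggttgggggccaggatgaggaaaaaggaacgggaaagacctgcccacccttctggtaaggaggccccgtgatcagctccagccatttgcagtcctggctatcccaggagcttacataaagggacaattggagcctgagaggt
F2, chr11:46718963-46719212, plus strand: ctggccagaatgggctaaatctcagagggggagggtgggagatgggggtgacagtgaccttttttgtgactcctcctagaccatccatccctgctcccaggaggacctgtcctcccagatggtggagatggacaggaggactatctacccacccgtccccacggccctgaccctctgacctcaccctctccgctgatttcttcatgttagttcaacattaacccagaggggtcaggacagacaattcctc
F12, chr5:177409565-177409814, minus strand: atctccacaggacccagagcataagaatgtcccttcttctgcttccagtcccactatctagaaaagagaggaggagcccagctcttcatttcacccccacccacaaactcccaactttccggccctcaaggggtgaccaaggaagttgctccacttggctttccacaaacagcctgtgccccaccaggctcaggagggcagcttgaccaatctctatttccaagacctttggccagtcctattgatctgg

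The interleukin-6 element was found in the promoters of FGB, FGG, F10 and PLG, and in 9.39% of all 27305 promoters. The HNF4 letters were found in 0 of the 9 promoters and in 0.304% of all promoters. The promoters of FGA, F2 and F12 held neither motif in this window. A match is a description of the sequence and not a measured site.

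The 3 fibrinogen chains were almost undetected. Their genes, which build the subunits of the fibrin precursor, lie together on chromosome 4 of hg38, FGB at 154563011 to 154572807, FGA at 154583126 to 154590742 and FGG at 154604134 to 154612967. FGA, the Aα chain, was listed at 0.0279 FPKM in WT replicate 1 and at 0 in the other libraries. FGB, the Bβ chain, was listed at 0.0924 FPKM in WT replicate 2 and at 0 in the other libraries. FGG, the γ chain, was listed at 0.0222 FPKM in TXNDC9-KO replicate 1 and at 0 in the other libraries. Each chain thus had a value in a single library, in no case the same one. PLRG1, a splicing factor gene beside the cluster, was the only tested gene within 100 kb and was measured at 50.2 and 74.6 FPKM in WT and at 43.9 and 46.9 FPKM in TXNDC9-KO.

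Among the vitamin K dependent zymogens, F2 (prothrombin) and F7 were listed at 0 in all 4 libraries. F10, the protease that converts prothrombin, was listed at 0.160 and 0 FPKM in WT and at 0.0354 and 0.0150 FPKM in TXNDC9-KO, so the groups overlapped. F7 and F10 lie side by side on chromosome 13, F7 at 113105788 to 113120685 and F10 at 113122799 to 113149529. The next tested gene on that side, PCID2, was measured at 39.8 and 49.6 FPKM in WT and at 31.0 and 32.2 FPKM in TXNDC9-KO. F5, the cofactor of F10, was listed at 0.00644 FPKM in TXNDC9-KO replicate 2 and at 0 in the other libraries. The values did not separate the groups for any of these genes.

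SERPINC1 (antithrombin) and PLG (plasminogen) were listed above 0 in every library but far below 1 FPKM. SERPINC1 was at 0.192 and 0.0326 FPKM in WT and at 0.0188 and 0.0311 FPKM in TXNDC9-KO. Both knockout values lay below both WT values, but WT replicate 2 stood close to them. PLG was at 0.172 and 0.119 FPKM in WT and at 0.154 and 0.0627 FPKM in TXNDC9-KO, and the groups overlapped. Across the 9 genes other than F12, 15 of 36 values were above 0 and none exceeded 0.192 FPKM. Their summed level was 0.551 and 0.244 FPKM in WT and 0.230 and 0.115 FPKM in TXNDC9-KO. None of the 9 passed the filter, so none was tested. An exact 0 in these files may be a failed estimate, since 13 of 13 mitochondrially encoded protein genes were also listed at 0. For comparison, 56.6% of 19628 protein-coding genes passed the filter and 17.5% were listed at 0 in all libraries.

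**Figure D1:**
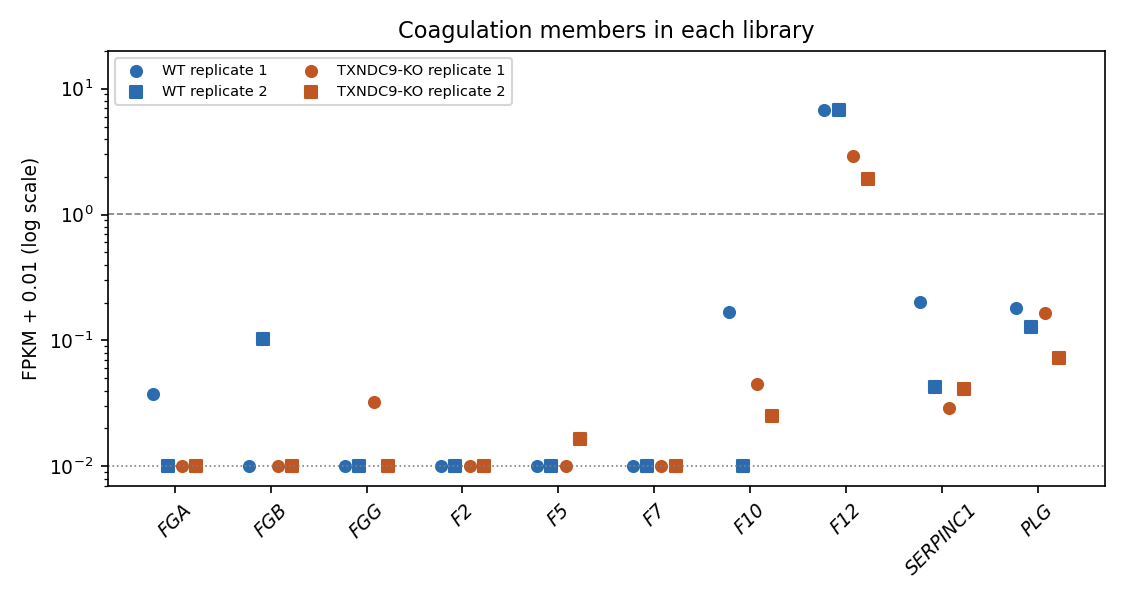
FPKM of the 10 coagulation genes in each of the 4 libraries, plotted as FPKM + 0.01 on a log axis, with WT in blue, TXNDC9-KO in orange, and circles and squares for replicates 1 and 2. The dashed line marks 1 FPKM and the dotted line a listed 0. F12 is the only gene above 1 FPKM, and its 2 WT points lie above its 2 TXNDC9-KO points.

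F12, the zymogen that starts the contact pathway on charged surfaces, was the exception. F12 (ENSG00000131187) is on the minus strand of chromosome 5 (hg38), between 177402133 and 177416583. It was measured at 6.78 and 6.70 FPKM in WT and at 2.91 and 1.90 FPKM in TXNDC9-KO. The groups did not overlap, and the WT libraries lay closer together than the knockout libraries. F12 averaged 6.74 ± 0.0555 FPKM in WT and 2.40 ± 0.712 FPKM in TXNDC9-KO (SD, n = 2 each). F12 fell 2.79-fold in TXNDC9-KO, a log2 difference of −1.48 (SE 0.22, limma on log2(FPKM + 0.1), adjusted p = 0.00217). It stood above 61.2% and 60.8% of protein-coding genes in the WT libraries and above 49.7% and 46.9% of them in the knockout libraries. F12 was thus 1 of 1 gene tested and called lower, where 15.3% of all tested genes were, and 0 were called higher.

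The F12 call depended on the processing. With the libraries corrected for GC content and transcript length, the log2 difference of F12 was −0.57 (limma, adjusted p = 0.0889), and rescaled to TPM it was −0.83 (limma, adjusted p = 0.02997), so it was called in neither. Without a filter the adjusted p was 0.0135 (limma). Without TXNDC9-KO replicate 1 or 2 the difference was −1.78 or −1.19 (limma, adjusted p = 0.0237 or 0.0249), in fits that called no gene. Over all alternatives that tested F12 its adjusted p ranged from 1.90e-04 to 0.0889 and the difference stayed negative. The exons of F12 share 257 of 2036 bases with GRK6, a receptor kinase gene on the opposite strand, and no source used here states whether counting used strand, so reads there cannot be told apart. GRK6 was measured at 30.8 and 29.1 FPKM in WT and at 23.5 and 23.1 FPKM in TXNDC9-KO, a log2 difference of −0.36 that was not called (limma, adjusted p = 0.0195) and that turned to 0.19 after the correction and 0.32 by TPM.

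The genes around F12 were compared as well. Of the 12 tested genes within 100 kb of F12, 12 had a negative log2 difference and 8 were called lower by the deposited FPKM, against 15.3% of all tested genes. GRK6 turned positive after the correction and by TPM, and RGS14 after the correction (0.0045). The 8 were DBN1, PRR7, DOK3, RAB24, PRELID1, PDLIM7, MXD3 and PRR7-AS1, with log2 differences from −1.56 to −1.09. By TPM none of these 8 passed 2-fold, RAB24 having the largest fall among them at −0.88. PDLIM7, a cytoskeletal adaptor gene, was measured at 120.02 and 138 FPKM in WT and at 42.4 and 45.6 FPKM in TXNDC9-KO. DBN1, the gene of the actin-binding protein drebrin, was measured at 58.0 and 58.7 FPKM in WT and at 26.6 and 26.8 FPKM in TXNDC9-KO. In both genes the groups were separated by more than the spread of their replicates, which adds little, since the call used these same values. DDX41, an RNA helicase gene, was measured at 3257 and 143 FPKM in WT and at 46.3 and 47.8 FPKM in TXNDC9-KO, so the WT libraries stood far apart and the gene was not called.

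The median log2 difference of the 12 neighbours was −1.16, against −0.09 over all tested genes. After the correction for length and GC content the median of the neighbours was −0.31, against −0.05 over all tested genes. Of the 12, 0 were then called lower by limma and 8 were lower at an unadjusted p under 0.05. Over all 13112 corrected genes, 969 were called lower and 4473 were lower at that unadjusted p. By TPM the median of the neighbours was −0.49, against 0.59 over all tested genes. These neighbours have a median GC content of 60.6% and a median transcript of 1661.5 nt, F12 itself 65.0% and 2036 nt, and all tested genes 48.5% and 2866.5 nt. Around the other 9 genes 14 genes were tested. Of these 0 were called lower and 1 higher, against 15.3% and 14.2% of all tested genes. The gene called was ZBTB37 next to SERPINC1, at 0.462 and 0.413 FPKM in WT and at 1.91 and 2.26 FPKM in TXNDC9-KO. It passed the filter only through the knockout libraries, and was called by TPM (2.70) but not after the correction (0.89). The 14 genes had a median log2 difference of 0.22, and of −0.08 after the correction. Their median GC content was 43.97% and their median transcript 3503.5 nt.

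**Figure D2:**
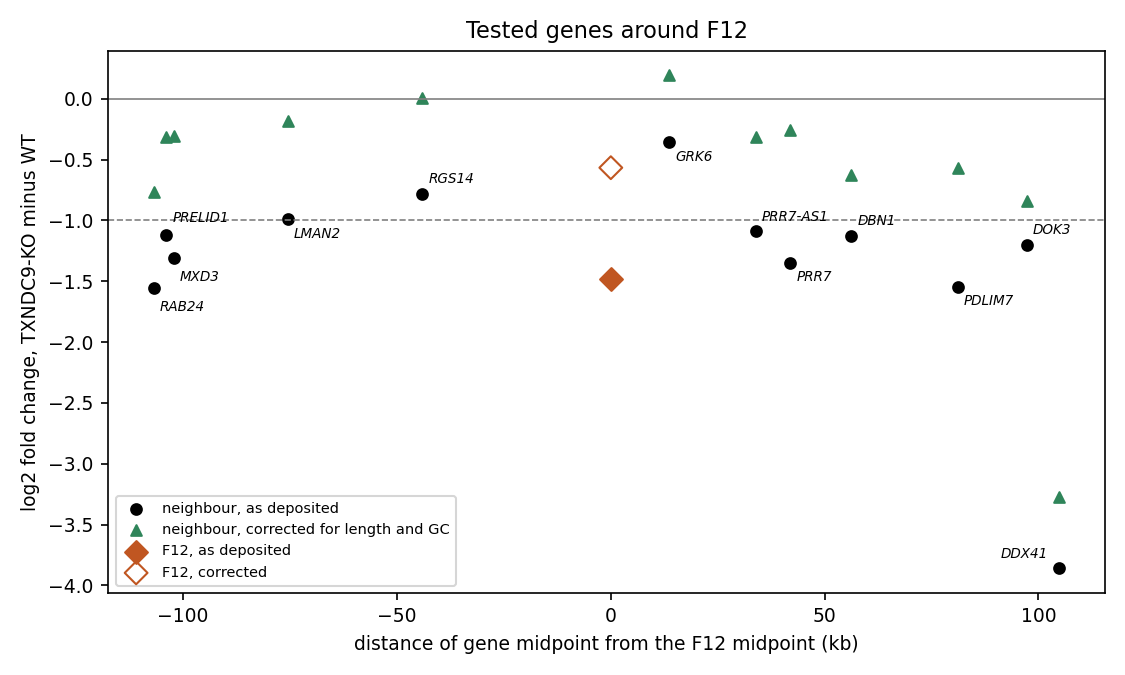
Log2 difference (TXNDC9-KO minus WT) of F12 and of the 12 tested genes within 100 kb, against the distance of each gene's midpoint from that of F12 in kb. Black points and the filled diamond are FPKM as deposited, green triangles and the open diamond are corrected for transcript length and GC content, and the dashed line marks a 2-fold fall. All 12 black points lie below 0, at a median of −1.16, and the triangles lie higher, at a median of −0.31.

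Transcript length moved with the difference across all genes. With the tested genes cut by length into 10 bins of near equal size, the median log2 difference ran from −0.86 in transcripts of 778 to 1350 nt to 0.90 in those of 7090 to 34626 nt. The bin that holds F12, from 1842 to 2309 nt, had a median of −0.47, and F12 lay at −1.48. The part of length and GC content in the F12 result was not tested beyond the correction.

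**Figure D3:**
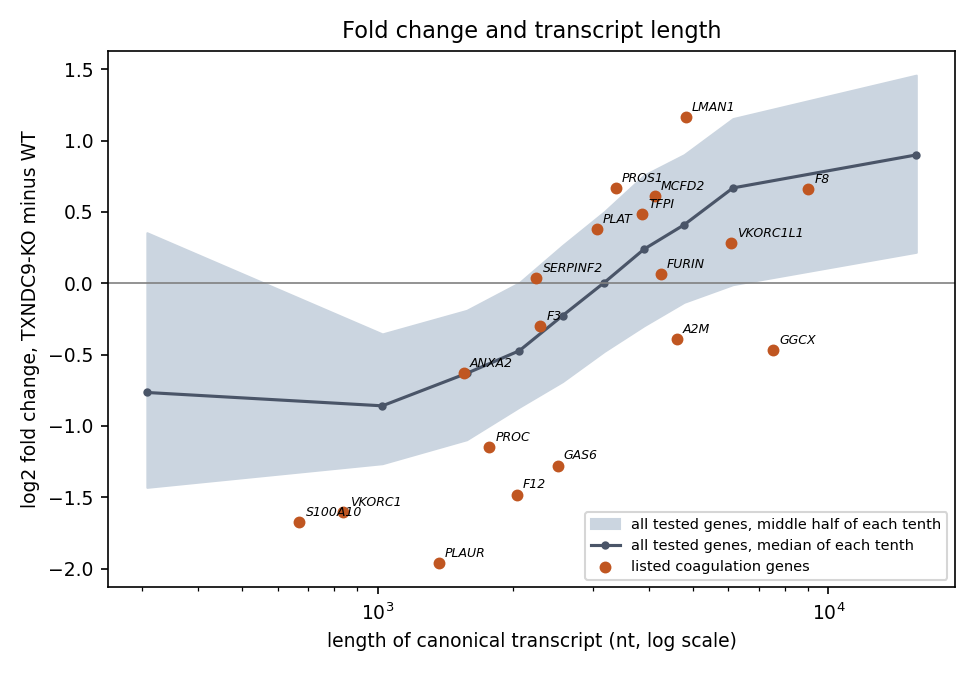
Log2 difference (TXNDC9-KO minus WT) against the length of the canonical transcript in nt on a log axis. The line and band are the median and the quartiles of all tested genes in 10 length bins, and orange points are tested coagulation and fibrinolysis genes. The median runs from −0.77 in the shortest bin through −0.86 to 0.90 in the longest, and F12 at −1.48 lies below the band.

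In the wider set of coagulation and fibrinolysis genes, about as many were below the filter as above it. Of 39 further genes, 19 passed the filter and 20 did not, and 9 were listed at 0 in all libraries: F9, F11, KLKB1, KNG1, HRG, F13A1, F13B, SERPINA5 and LPA. Of the 19 tested, 3 were called lower, 1 higher and 15 neither, against 15.3% lower and 14.2% higher of all tested genes. Their median log2 difference was −0.30, against −0.09 over all tested genes. By TPM 1 was called lower and 6 higher, where 447 and 4380 of all 13246 tested genes were. The median of the 19 turned to 0.37 by TPM, against 0.59 over all tested genes.

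**Figure D4:**
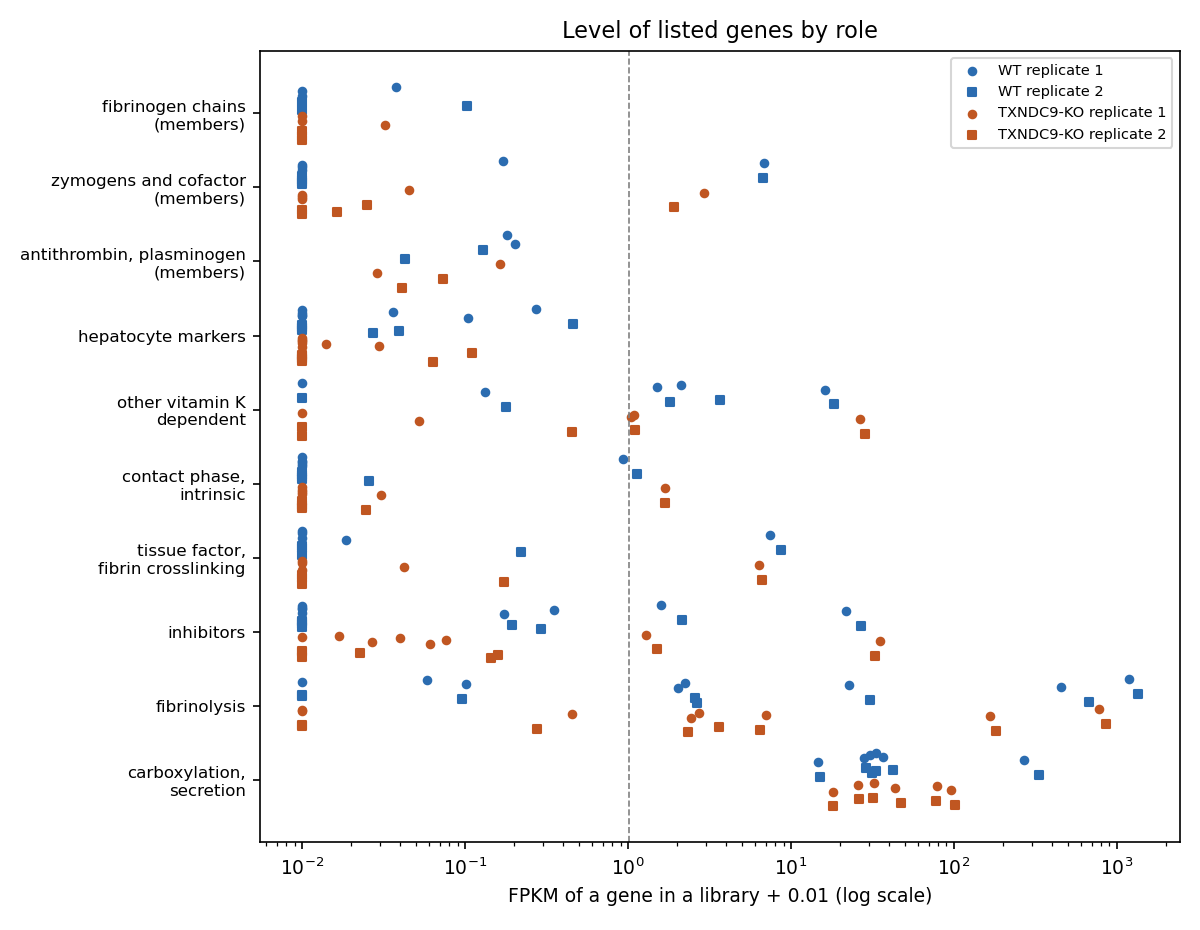
FPKM + 0.01 of the members, the hepatocyte markers and genes of the wider set in each library on a log axis. Genes are grouped by role, with WT in blue, TXNDC9-KO in orange, and circles and squares for replicates 1 and 2. The dashed line marks 1 FPKM. The members other than F12 and the 7 hepatocyte markers lie left of the line, and all 6 genes of carboxylation and secretion lie right of it.

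Fibrinolysis runs on receptors, activators and inhibitors at the cell surface, and 2 of its 6 tested genes were called lower, against 15.3% of all tested genes. PLAUR, the urokinase receptor, was measured at 22.7 and 30.6 FPKM in WT and at 6.98 and 6.43 FPKM in TXNDC9-KO. The knockout libraries lay close together and below both WT libraries, a log2 difference of −1.96 (SE 0.16, limma, adjusted p = 0.000562). S100A10, which with annexin A2 binds plasminogen at the cell surface, was measured at 452 and 677 FPKM in WT and at 166 and 180.4 FPKM in TXNDC9-KO. The WT libraries differed from each other, but both exceeded the knockout libraries, with a log2 difference of −1.68 (SE 0.21, limma, adjusted p = 0.00133). PLAUR and S100A10 were called after the correction too, at −1.23 and −1.25. By TPM the difference of S100A10 was −0.995, just short of 2-fold.

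The other 4 tested fibrinolysis genes were not called by the deposited FPKM. ANXA2, the partner of S100A10, was measured at 1196 and 1348 FPKM in WT and at 782 and 861 FPKM in TXNDC9-KO, a log2 difference of −0.63. PLAT, the tissue plasminogen activator, was at 2.24 and 2.55 FPKM in WT and at 2.71 and 3.63 FPKM in TXNDC9-KO. By TPM the log2 difference of PLAT was 1.04 and it was called higher. PLAU, the urokinase gene, did not pass the filter, at 0.0917 and 0.0852 FPKM in WT and 0.441 and 0.265 FPKM in TXNDC9-KO. The receptor of urokinase was thus measured far above urokinase itself in WT, per length of transcript.

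All 6 genes that modify and export clotting factors were tested, and 1 was called lower and 1 higher, close to the 15.3% and 14.2% of all tested genes. VKORC1, the reductase that recycles vitamin K and the target of warfarin, was measured at 269 and 332 FPKM in WT and at 95.4 and 101 FPKM in TXNDC9-KO. Its groups were far apart, with a log2 difference of −1.60 (SE 0.14, limma, adjusted p = 0.000607), which was −0.76 after the correction and −0.92 by TPM, so neither passed 2-fold. Of its 840 exon bases, 602 are shared with the annotated gene RP11-196G11.1 on the same strand. With RP11-196G11.3 on the opposite strand it shares 241. These genes averaged 0.733 and 6.04 FPKM, and the counting may split reads between them and VKORC1. GGCX, the carboxylase that uses vitamin K, was at 30.4 and 42.4 FPKM in WT and at 25.6 and 26.2 FPKM in TXNDC9-KO, a log2 difference of −0.47 that was not called, and of −1.20 after the correction (limma, adjusted p = 0.00366), which was.

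LMAN1, the cargo receptor that carries F5 and F8 out of the endoplasmic reticulum, was the gene called higher. It was measured at 36.8 and 33.2 FPKM in WT and at 78.8 and 78.0 FPKM in TXNDC9-KO. Both groups were tight and apart, with a log2 difference of 1.16 (SE 0.10, limma, adjusted p = 0.000614). After the correction the difference was 0.40 and LMAN1 was not called. MCFD2, the partner of LMAN1, was at 27.97 and 31.4 FPKM in WT and at 43.8 and 47.0 FPKM in TXNDC9-KO. The log2 difference of MCFD2 was 0.61, which missed 2-fold, but by TPM it was 1.29 and called higher. F5, one of the cargoes of LMAN1, was listed at or near 0 in the same libraries.

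The remaining tested factors and inhibitors were not called by the deposited FPKM. By TPM F8 (1.32), TFPI (1.16) and PROS1 (1.35) were called higher, where 4380 of all 13246 tested genes were. F3 (tissue factor), which starts clotting together with F7, was measured at 7.41 and 8.69 FPKM in WT and at 6.35 and 6.64 FPKM in TXNDC9-KO, a log2 difference of −0.30 (limma, adjusted p = 0.0810). TFPI, the inhibitor of that complex, was at 21.9 and 27.0 FPKM in WT and at 35.2 and 32.8 FPKM in TXNDC9-KO, a log2 difference of 0.48 (limma, adjusted p = 0.0203). Both proteins are made outside the liver too. F8, the cofactor of F9, was at 0.917 and 1.13 FPKM in WT and at 1.67 in both TXNDC9-KO libraries. PROC, the zymogen of the anticoagulant protein C, was at 1.49 and 1.80 FPKM in WT and at 1.03 and 0.444 FPKM in TXNDC9-KO. Its log2 difference was −1.15 (limma, adjusted p = 0.0584). PROC averaged 1.64 FPKM in WT and 0.737 FPKM in TXNDC9-KO, so it passed the filter only through the WT libraries. PROS1, the cofactor of protein C, was at 16.2 and 18.4 FPKM in WT and at 26.7 and 28.5 FPKM in TXNDC9-KO, a log2 difference of 0.67 that missed 2-fold.

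**Figure D5:**
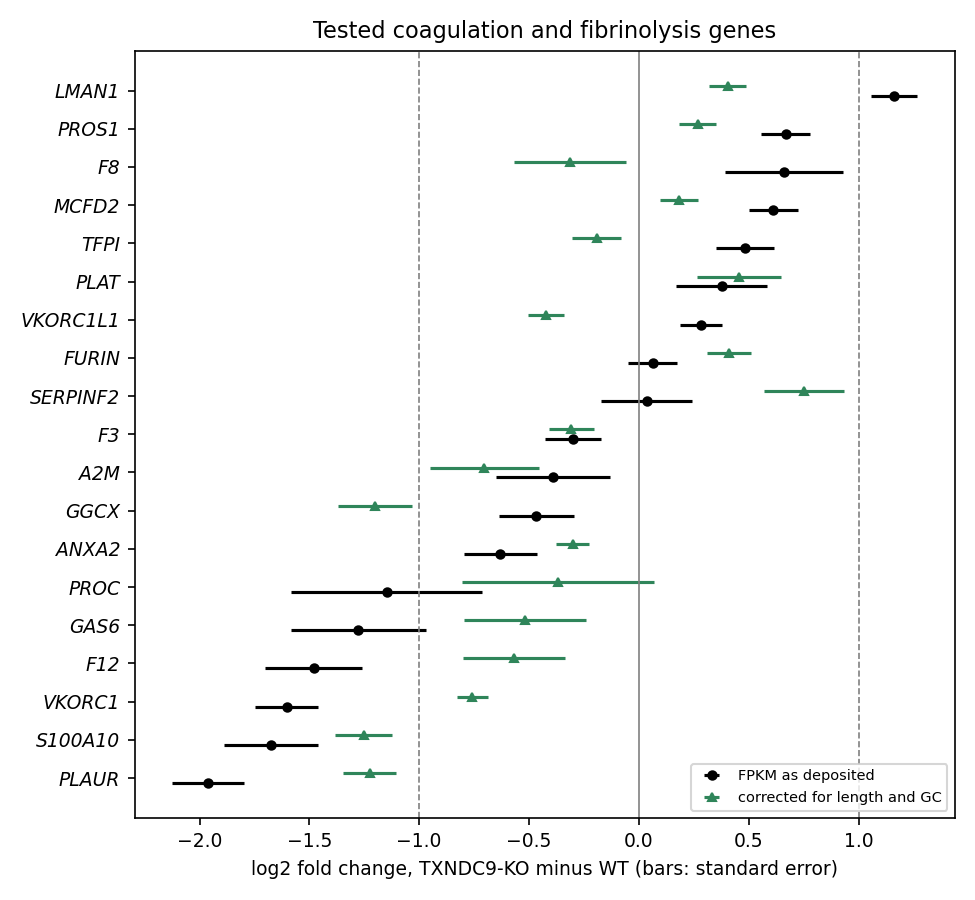
Log2 difference (TXNDC9-KO minus WT) of F12 and of tested genes of the wider set, with standard errors as bars, for FPKM as deposited (black) and corrected for transcript length and GC content (green). Dashed lines mark 2-fold. PLAUR at −1.96, S100A10 at −1.68, VKORC1 at −1.60 and F12 at −1.48 lie lowest, and LMAN1 at 1.16 lies highest.

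Liver transcription factors, which act on such promoters, and the genes of interleukin-6 signalling were read last. FOXA2, a liver transcription factor gene, was listed at 0 in all libraries, and HNF4A, another, was at 0.0628 and 0 FPKM in WT and at 0.0243 and 0.0209 FPKM in TXNDC9-KO. Of 10 listed regulators 6 were tested, and 4 were called higher, against 14.2% of all tested genes. STAT3, which carries the interleukin-6 signal, was measured at 36.3 and 35.7 FPKM in WT and at 78.3 and 81.1 FPKM in TXNDC9-KO, a log2 difference of 1.14 (SE 0.10, limma, adjusted p = 0.000572). IL6ST and IL6R, the chains of the interleukin-6 receptor, had log2 differences of 1.66 and 1.34, and FOXA1, a pioneer factor, of 1.14. IL6ST was at 4.08 and 5.12 FPKM in WT and at 14.2 and 15.0 FPKM in TXNDC9-KO, and 797 of its 9027 exon bases are shared with an antisense gene. IL6R was at 1.46 and 1.28 FPKM in WT and at 3.59 and 3.66 FPKM in TXNDC9-KO. FOXA1 was at 4.45 and 2.92 FPKM in WT and at 7.61 and 8.53 FPKM in TXNDC9-KO. In all 4 genes both knockout libraries lay above both WT libraries, which adds little, since the call that picked them used these same values. After the correction the differences were 0.84 for STAT3, 0.52 for IL6ST, 0.99 for IL6R and 1.05 for FOXA1, and none of these 4 was called. STAT3 and IL6R missed only 2-fold there (limma, adjusted p = 0.00126 and 0.00762). FOXA1 missed the limit of p (limma, adjusted p = 0.0122), and IL6ST missed both limits (limma, adjusted p = 0.0255). By TPM all 4 were called higher, at 1.82 for STAT3, 2.34 for IL6ST, 2.02 for IL6R and 1.82 for FOXA1. CEBPA and CEBPB, liver and acute phase factors, were not called by the deposited FPKM, but CEBPB was called higher after the correction, at 1.09 (limma, adjusted p = 0.00323), against 0.11 before it. STAT3 and both receptor chains were thus called higher in TXNDC9-KO by the deposited FPKM and by TPM but not after the correction. FGB, FGG, F10 and PLG, whose promoters hold the interleukin-6 element, lay below 1 FPKM in every library. A link between these levels was not tested.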

How the data were processed

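The deposited values are FPKM for each gene in each library, which the authors computed with Cuffdiff (Cufflinks) after TopHat2 mapping to hg38. Tool versions, and whether strand was used, are not given in the sources used here. Their columns of condition averages, log2 fold changes, p-values and q-values were not used. The table had 231916 lines, 57979 with values. Each identifier stood on 4 lines, out of register with the symbols, and was restored by order, after which 61.4% of the 56935 identifiers in GENCODE release 44 carried its symbol. Symbols and values on a line were used as deposited, so that a value out of register with its symbol would stand under the wrong gene. Positions, transcript lengths and GC content came from that release.

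WT and TXNDC9-KO were compared by limma 3.58.1 (R 4.3.3, prior variance following expression) on log2(FPKM + 0.1), keeping genes whose mean over the 4 libraries exceeded 1 FPKM, with Benjamini-Hochberg adjustment over 13246 genes, at an adjusted p under 0.01 and 2-fold. A fold change on this scale understates that of low genes. For a called gene, separation of the groups adds little, since the call used the same values. The correction fitted a loess curve (span 0.3) on length and GC content to each library, for 13112 genes. Low values gave no common step per read, so depth is unknown and no intervals are given. An exact permutation test of 2 against 2 cannot give a p under 0.33 and was not run.

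The members and lists were chosen with earlier results of these data known. Named were the members, the called genes of the wider and regulator lists, the called neighbours within 100 kb, and TXNDC9; other genes were chosen after their values were seen or to describe their group. The fits were repeated with a pseudocount of 1 or 0.01, an average above 5 or no filter, an adjusted p under 0.05, TPM, centring on the median, no trend, the correction, a replicate block and leaving out each library. Python 3.11.15, pandas 2.3.3, numpy 2.4.6 and matplotlib 3.10.9 were used. Some genes of the lists are counted but not reported here.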

Additional observations from a re-analysis of the deposited data

How the results depend on the processing

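F12 was the 1 coagulation member called lower, and 0 were called lower after the length and GC correction, after it with the replicate block, without a filter, or by TPM. Above 5 FPKM F12 was not tested. The wider list held 1 lower and 6 higher by TPM, and 0 higher after the correction with or without the block. The 6 higher by TPM were LMAN1, PROS1, MCFD2, F8, TFPI and PLAT. Over all genes, 2021 lower and 1885 higher became 969 and 841 with the correction, 975 and 841 with the correction and block, and 447 and 4380 by TPM, and 1220 were higher above 5 FPKM. By TPM 90.7% of calls were higher, against 48.3%. Leaving out each library gave 0 to 1 members lower, 0 to 4 of the wider list lower and 0 to 1 higher, and 0 to 2633 lower and 0 to 2136 higher over all genes. The 0 counts came without TXNDC9-KO replicate 1 or 2, where limma called no gene and 3670 or 4013 were lower and 3459 or 3294 higher at an unadjusted p under 0.05. These fits leave 1 residual degree of freedom, and the lone library is assumed to vary like the other group. The log2 difference of F12 was then −1.78 or −1.19 (limma, adjusted p = 0.0237 or 0.0249), and that of TXNDC9 ranged from −0.72 to −0.39.

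Deviations from the group mean had a correlation of −0.0904 over 13246 genes between libraries of the same replicate number. With 2 libraries per group this single value cannot show whether the libraries were paired. With the replicate block, F12 stayed at −1.48 (limma, adjusted p = 1.90e-04). In that fit 1 member was lower, as were 4 genes of the wider list and 2146 genes in all, with 1 and 1960 higher.

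Among TXNDC9, the members, the wider list and the regulators, signs turned by TPM for TXNDC9 (0.12), F3 (0.37), A2M (0.25), ANXA2 (0.0501), GGCX (0.21) and CEBPA (0.67). They turned with the correction, with or without the block, for F8 (−0.31), TFPI (−0.19), VKORC1L1 (−0.42) and CEBPA (0.83). Of the neighbours and markers named here, GRK6 turned in both (0.32 and 0.19). PLRG1 (0.25), PCID2 (0.19) and COL1A1 (0.19) turned by TPM, and RGS14 with the correction (0.0045). CEBPB gained a call with the correction (1.09), with or without the block, as did GGCX (−1.20). Signs turned on centring for SERPINF2 (−0.11), FURIN (−0.0799) and CEBPB (−0.0356), and with a pseudocount of 0.01 for CEBPA (4.36e-05). Leaving out a library, the ranges were −0.15 to 0.22 for SERPINF2, −0.0379 to 0.16 for FURIN, −0.21 to 0.21 for CEBPA and −0.10 to 0.32 for CEBPB. The causes were not tested. The ratio of the fibrinogen chains could not be computed, since each was listed at 0 in 3 libraries.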
